A study of Mus musculus with 6 samples.

Results

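Cell cycle and mitosis genes were followed in primary cells of the mouse embryonic cortex during heat shock. The set holds 36 genes out of 55538 in the table, found by matching Ensembl identifiers to their symbols: 2 cyclins of G1, 14 genes of the G1 to S transition and of DNA replication (S-phase genes), and 20 genes of G2 and mitosis (G2/M genes). All 36 were measured and all passed the filter for testing, a mean signal of at least 1 over the libraries. The rule that finds them uses symbols and no threshold on a measured value.

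The cells came from the cortex of C57BL/6 embryos at day 14.5, were labelled as neurons and were kept in medium with serum for 2 h before the experiment. The control stayed at 37 °C for 60 min, and heated cells were at 42 °C for 15 min or for 60 min. Each group had 2 libraries of total RNA, called s1 and s2 after the column names, and the labels do not say whether they came from separate cultures or litters, so the spread between them may be technical. All groups share the strain, the region and a medium with serum and penicillin-streptomycin, the labels give no engineered allele, and no control of 15 min is described, so time in culture and heat cannot be told apart at 15 min. Levels are given in the authors' normalised signal, which is named TPM and so is scaled for transcript length, and the depth of the libraries is unknown.

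Dividing cells copy their DNA in S phase and then separate the copies in mitosis, and most of the genes involved are switched on only when needed. E2F factors drive genes of replication at the G1 to S transition, and the DREAM and MuvB complexes together with B-Myb and FoxM1 govern genes of G2 and mitosis through an element called the cell cycle homology region. In the embryonic cortex these transcripts come chiefly from radial glia and intermediate progenitors, while neurons have left the cycle. Messages of the replication-dependent histones are made in S phase as well, end in a stem-loop in place of a poly(A) tail, and are destroyed quickly when DNA synthesis stops.

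Promoter sequences are shown as a description. Whether they relate to the way the members moved from library to library, described below, was not tested. RefSeq promoters of build GRCm38.p6, which is earlier than the authors' GRCm39, were matched for 28 members, 12 of S phase and 16 of G2/M. In the 250 bases before the start site, the cell cycle homology region, searched as TTTGAA on both strands, was found in 8 of 16 G2/M genes and 1 of 12 S-phase genes, against 18.3% of 27025 genes in the promoter table. The CCAAT box, CCAAT on both strands, was found in 15 of 16 and 8 of 12, against 37.5% of all. The E2F word TTTNNCGC was found in 1 of 16 and 4 of 12, against 4.94%. Over the 250 bases 11 of 58 other G2/M and 10 of 40 other S-phase genes held the E2F word. Within 100 bases of the start site the E2F word was found in 1 of 16 and 1 of 12, against 2.16% of all. In that window 8 of 58 other G2/M and 7 of 40 other S-phase genes held it. The heat shock word GAANNTTC was found in 2 of 16 and 3 of 12, against 7.73%. Within 100 bases of the start site it was found in 0 of 16 and 1 of 12, against 3.17% of all. Over the 250 bases it was found in 3 of 58 other G2/M and 2 of 40 other S-phase genes. A match describes the letters in this window and is no measured binding site, and the words can overlap each other. The last 120 bases before the start site are printed 5′ to 3′ on the gene's strand for 4 G2/M genes and 1 S-phase gene. Capitals mark the cell cycle homology region and CCAAT boxes in the G2/M genes and the E2F word in the S-phase gene, on either strand. The printed genes are examples that hold these words: TTTGAA was found in 8 of 16 G2/M genes but in all 4 printed. The printed S-phase gene is the 1 of 12 with the E2F word within 100 bases of the start site. The genes are the kinase Cdk1 (chr10:69352913-69353032, minus strand), the topoisomerase Top2a (chr11:99024190-99024309, minus strand), the ubiquitin-conjugating enzyme Ube2c (chr2:164769809-164769928, plus strand), the spindle motor Kif11 (chr19:37376262-37376381, plus strand) and the helicase subunit Mcm6 (chr1:128359706-128359825, minus strand).
Cdk1: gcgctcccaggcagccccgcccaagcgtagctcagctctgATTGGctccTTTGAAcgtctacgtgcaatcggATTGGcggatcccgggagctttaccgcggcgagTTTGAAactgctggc
Top2a: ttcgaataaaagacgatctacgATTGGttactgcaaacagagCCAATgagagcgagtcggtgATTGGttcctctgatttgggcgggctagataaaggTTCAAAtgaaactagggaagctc
Ube2c: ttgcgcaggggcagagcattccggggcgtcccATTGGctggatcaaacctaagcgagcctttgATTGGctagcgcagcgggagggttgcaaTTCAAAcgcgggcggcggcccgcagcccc
Kif11: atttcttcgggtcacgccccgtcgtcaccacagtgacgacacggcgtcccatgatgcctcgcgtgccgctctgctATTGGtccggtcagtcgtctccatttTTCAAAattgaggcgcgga
Mcm6: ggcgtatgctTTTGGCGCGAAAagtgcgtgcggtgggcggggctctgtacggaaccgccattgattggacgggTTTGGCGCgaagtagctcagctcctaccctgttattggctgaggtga

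The label of neurons was checked against markers. Neuronal markers (19 genes) summed to a signal of 2327 to 3176 per library and progenitor markers (19 genes) to 3124 to 4127, so transcripts of both kinds of cell were present. Sums over the markers that passed the filter were lower for endothelial and mural cells (10 of 12 genes, 20.3 to 33.7), microglia and macrophages (11 of 14, 19.0 to 30.7), fibroblasts and meninges (6 of 9, 117 to 171) and erythroid cells (8 of 10, 274 to 515). Control s1 stood apart from the other libraries, with 29309 genes at 1 or above against 19035 to 21796, and its values enter every comparison with control. In bulk RNA, fewer cycling cells and less RNA per cycling cell cannot be told apart.

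**Figure D1:**
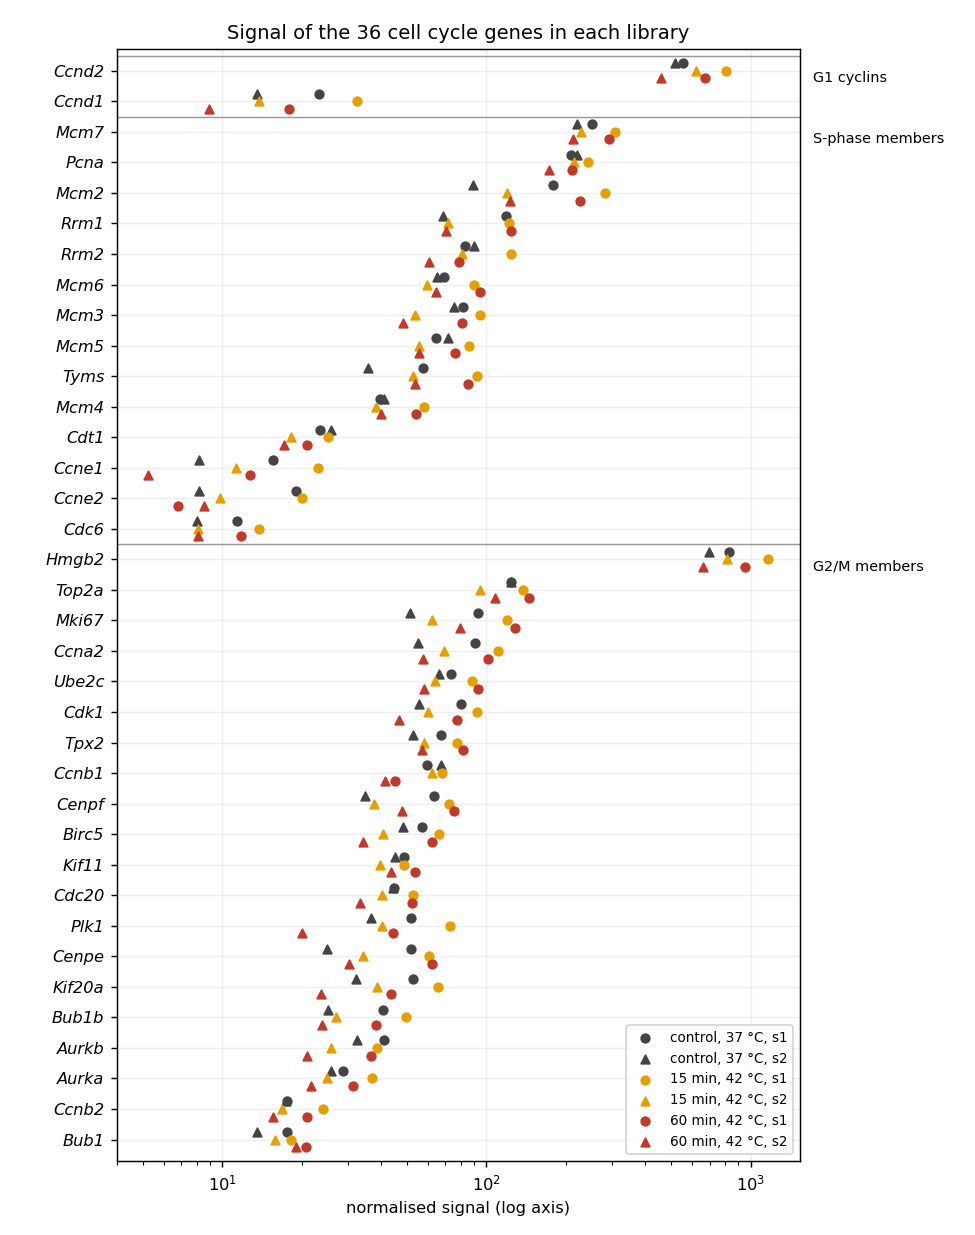
Normalised signal of each of the 36 genes (log axis) in each of the 6 libraries, coloured by group, with circles for s1 and triangles for s2. The circle lies to the right of the triangle for 29 of 36 genes in control, 36 at 15 min and 35 at 60 min, while the colours are mixed.

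Within each group, most of these genes had the higher signal in the same library. Library s1 was above s2 for 29 of 36 genes in control, 36 of 36 at 15 min and 35 of 36 at 60 min. Over all genes tested s1 was the higher for 58.0%, 46.8% and 51.5% in the same order. The median difference on the log2 scale was 0.30, 0.61 and 0.59, against medians of 0.14, −0.012 and 0.013 over the 21954 genes tested. In all 3 groups together s1 was higher for 28 of 36 members (77.8%), against 20.8% of all genes. It was so for 18 of 20 G2/M genes and 8 of 14 S-phase genes. Of other cell cycle genes, 42 of 55 of S phase and 52 of 67 of G2/M did the same. The summed signal of the 36 genes was 3736 and 3106 in the controls, 4885 and 3328 at 15 min, and 4228 and 2848 at 60 min, with s1 given first. Of 19 neuronal genes s1 was the higher for 5 in control, 5 at 15 min and 6 at 60 min, and of 19 progenitor genes for 10, 16 and 15. Whether a different share of progenitors and neurons in s1 and s2 moved these values was not tested.

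**Figure D2:**
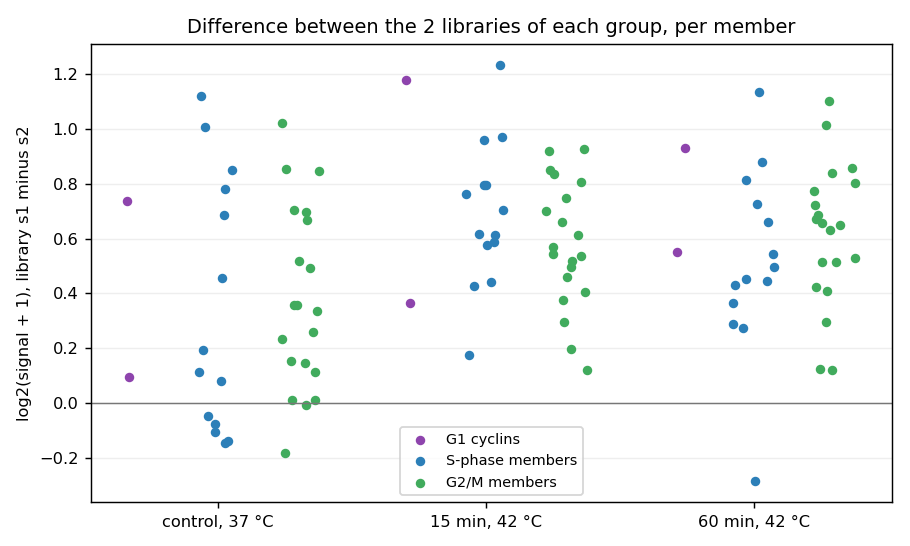
Difference in log2(signal + 1) between the libraries s1 and s2 of each group, 1 point per member, coloured by list. At 15 min all 36 points lie above 0, and at 60 min 35 of 36 do.

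The first question was whether heat changed the level of these transcripts. After 60 min at 42 °C none of the 36 passed limma's test, against 9 of 21954 genes (0.0410%), and 1, Ccnb1, had an unadjusted p under 0.05, against 8.34% of all genes. After 15 min none passed, as for all genes (0%), and 0 had an unadjusted p under 0.05, against 3.95%. Between 60 and 15 min none passed, against 0.0182% of genes, and Ccnb1 again had an unadjusted p under 0.05, against 6.19%. The number of members with both 60 min libraries below both controls was 3 (Cdt1, Rrm2 and Ccnb1), against 19.8% of genes, and 1 (Bub1) had both above, against 12.8%. From 15 to 60 min 4 members (Ccne2, Pcna, Rrm2 and Ccnb1) had both later libraries below both earlier ones, against 22.6% of genes, and 1 (Bub1) had both above, against 25.9%. These shares lie below the background, and the spread between libraries limits what can be seen: standard errors of the log2 change ran from 0.18 for Ccnb1 to 0.53 for Mcm2.

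The D-type cyclins pair with Cdk4 and Cdk6 to carry cells through G1. Ccnd2 (ENSMUSG00000000184) had 554 and 518 in the controls, 804 and 624 at 15 min, and 672 and 458 at 60 min. Both 15 min libraries were above both controls, and the 60 min libraries lay on either side of them. This was the only member with both 15 min libraries above both controls, against 15.1% of all genes, and none had both below, against 18.9%. Its log2 change at 15 min was 0.40 ± 0.26 (SE, 95% interval −0.22 to 1.03, limma adjusted p = 0.747). Ccnd1 (ENSMUSG00000070348) was far lower, at 23.2 and 13.5, 32.5 and 13.8, and 17.9 and 8.89 in the same order. Its groups overlapped in every comparison.

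Among S-phase genes, the MCM proteins form the helicase that opens DNA at replication origins. Mcm7 (ENSMUSG00000029730) had 251 and 220 in the controls, 307 and 228 at 15 min, and 291 and 213 at 60 min. Mcm2 (ENSMUSG00000002870) had 179.5 and 88.7, 282 and 119.2, and 227 and 123. The s2 control was lowest for Mcm2, yet the groups overlapped, since the s1 control exceeded the s2 library of both heated groups. The log2 change of Mcm2 at 60 min was 0.40 ± 0.53 (95% interval −0.89 to 1.69, adjusted p = 0.895), so changes of either sign lie within the interval. Mcm3, Mcm4, Mcm5 and Mcm6 had signals between 38.3 and 94.6 over all libraries, and the 4 overlapped between control and 60 min.

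Pcna (ENSMUSG00000027342), the sliding clamp of DNA polymerases, had 209 and 221 in the controls, 243 and 215 at 15 min, and 211 and 173 at 60 min. It had the smallest standard error of the S-phase genes, with a log2 change at 60 min of −0.17 ± 0.19 (95% interval −0.64 to 0.30, adjusted p = 0.88). Nucleotide supply was represented by 3 members. Rrm1 (ENSMUSG00000030978), the large subunit of ribonucleotide reductase, had 119.03 and 68.8, 122 and 71.3, and 124 and 70.0, nearly the same pair of values in each group. Rrm2, its small subunit, had 83.3 and 89.6, 124 and 80.6, and 78.5 and 60.7, and both 60 min libraries were below both controls. Tyms (ENSMUSG00000025747), thymidylate synthase, had 57.7 and 35.5, 92.2 and 52.6, and 85.2 and 53.5. The groups of Tyms overlapped, since the s1 control exceeded the s2 library of both heated groups, and its log2 change was 0.61 ± 0.38 at 15 min (adjusted p = 0.747) and 0.57 ± 0.38 at 60 min (adjusted p = 0.779).

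Licensing factors and E-type cyclins act just before replication begins. Cdt1 (ENSMUSG00000006585), which loads MCM on origins, had 23.4 and 25.8 in the controls, 25.1 and 18.2 at 15 min, and 20.9 and 17.1 at 60 min, both below the controls. Its log2 change at 60 min was −0.36 ± 0.23 (95% interval −0.91 to 0.19, adjusted p = 0.758). Cdc6, its partner, ran from 8.04 to 13.8 without a split by group. Ccne2 (ENSMUSG00000028212), an E cyclin that activates Cdk2, had 19.0 and 8.20, 20.1 and 9.83, and 6.78 and 8.50. In Ccne2 alone of the 36 the 60 min s1 library was the lower of its pair, and its log2 change at 60 min was −0.66 ± 0.46 (adjusted p = 0.783). Ccne1 had 15.6 and 8.19, 23.05 and 11.3, and 12.7 and 5.24.

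Among G2/M genes, Ccnb1 (ENSMUSG00000041431), the B cyclin whose complex with Cdk1 starts mitosis, was the member farthest from control by p. It had 59.4 and 67.5 in the controls, 67.7 and 62.2 at 15 min, and 45.0 and 41.4 at 60 min. Both 60 min values lay below all 4 others, and in the controls s2 was the higher. The log2 change was −0.54 ± 0.18 from control (95% interval −0.98 to −0.11, adjusted p = 0.518) and −0.58 ± 0.18 from 15 min (adjusted p = 0.667), so it did not pass. Ccnb2, the related cyclin, had 17.6 and 17.5, 24.1 and 16.8, and 20.99 and 15.6, with no such separation. A processed copy named Ccnb2-ps is listed at 6.81 to 8.84, and reads of Ccnb2 can be divided between them.

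The G2/M transcripts with the highest mean signal were Hmgb2, Top2a, Mki67 and Ccna2. Hmgb2 (ENSMUSG00000054717), a chromatin-bending protein, had 832 and 695 in the controls, 1169 and 816 at 15 min, and 949 and 658 at 60 min. Top2a (ENSMUSG00000020914), which untangles DNA, had 123.6 and 124.2, 138 and 94.99, and 145 and 108. The controls of Top2a were nearly equal and the heated libraries lay on either side of them. Mki67 (ENSMUSG00000031004), which encodes the proliferation marker Ki-67, had 93.2 and 51.4, 119.5 and 62.4, and 129 and 79.6. Its log2 change at 60 min was 0.54 ± 0.43 (95% interval −0.50 to 1.58, adjusted p = 0.816), and the groups overlapped. Ccna2 (ENSMUSG00000027715), the A cyclin of S phase and G2, had 90.4 and 55.1, 110.2 and 69.3, and 101 and 57.6.

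Bub1 (ENSMUSG00000027379), a kinase of the spindle checkpoint, had 17.7 and 13.6 in the controls, 18.3 and 15.8 at 15 min, and 20.8 and 19.0 at 60 min, above all others. Its log2 change at 60 min was 0.34 ± 0.21 (95% interval −0.18 to 0.85, adjusted p = 0.753). Plk1, which drives mitotic entry and exit, had 51.7 and 36.5, 72.7 and 40.3, and 44.2 and 20.1, and Kif20a, a motor of cytokinesis, 52.8 and 32.2, 65.5 and 38.6, and 43.6 and 23.6. These were the G2/M members with the lowest changes from 15 to 60 min, at −0.84 ± 0.44 and −0.63 ± 0.41 on the log2 scale (adjusted p = 0.895 and 0.899). The remaining 12 were Cdk1, Cdc20 (an activator of the anaphase-promoting complex), Ube2c, the Aurora kinases Aurka and Aurkb, Bub1b, Birc5 (survivin), the kinetochore proteins Cenpe and Cenpf, Kif11, Tpx2 (a spindle assembly factor) and Ccnb2. Their signals ran from 15.6 to 93.2 and overlapped between control and both heated groups.

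The second question was whether S-phase and G2/M genes differed from each other. At 60 min 7 of 14 S-phase genes were lower than in control and 7 higher, with a median log2 change of −0.018. Of 20 G2/M genes 9 were lower and 11 higher, with a median of 0.029. Over all genes tested 13690 of 21954 were lower and the median was −0.12. At 15 min 12 of 14 S-phase genes and 16 of 20 G2/M genes had higher values than control, with medians of 0.14 and 0.15, against −0.098 over all genes. The size of these medians depended on scaling. With quantile normalisation they were 0.020 and 0.075, against 0.028 over all genes. With median-of-ratios scaling they were 0.48 and 0.49, against 0.17. From 15 to 60 min 13 of 14 and 14 of 20 were lower, with medians of −0.12 and −0.16, against 0.00087. The S-phase median minus the G2/M median was −0.047 at 60 min and −0.011 at 15 min, within the SD of 0.059 that it had among libraries of the same group. The summed S-phase signal divided by the summed G2/M signal was 0.632 and 0.663 in the controls, 0.640 and 0.612 at 15 min, and 0.635 and 0.653 at 60 min, so the groups overlapped. The medians of single lists were less stable than their difference: without the 15 min library s1 both turned negative at 15 min, at −0.13 and −0.12, the G2/M median also without control s2, at −0.060, and without 60 min s1 they were −0.30 and −0.27 at 60 min. From 15 to 60 min they were 0.22 and 0.15 without 15 min s1, and 0.14 and 0.21 without 60 min s2.

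**Figure D3:**
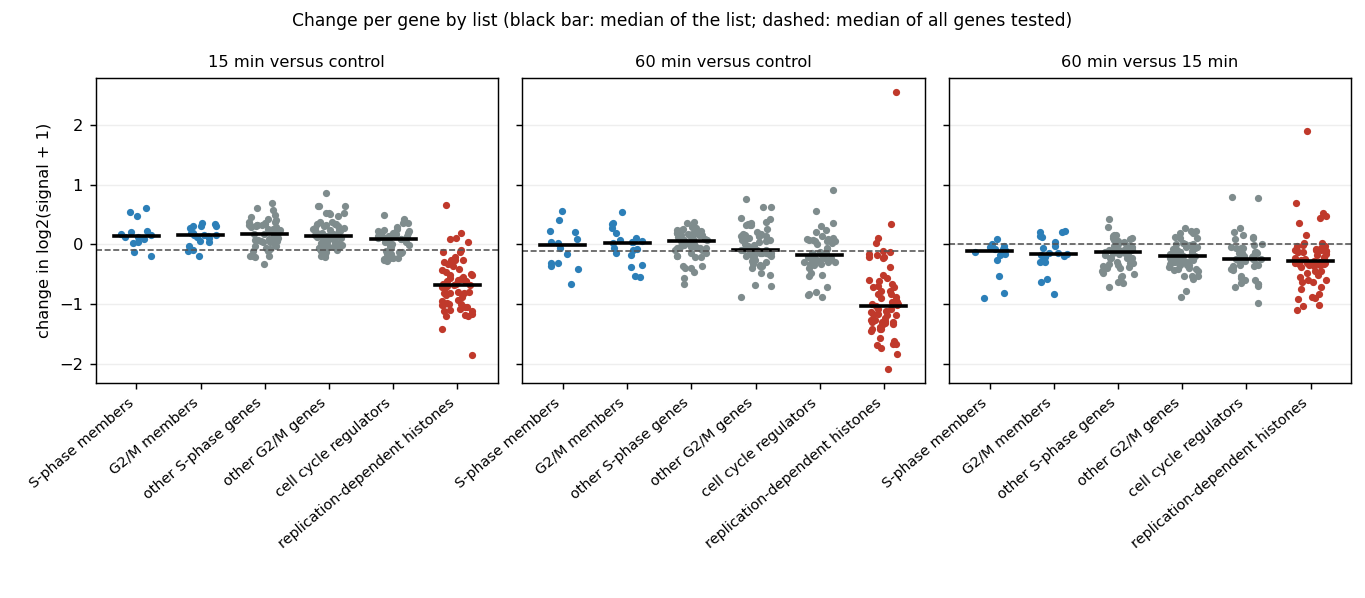
Change in log2(signal + 1) per gene in each comparison, 1 point per gene, with the median of each list as a black bar and the median of all genes tested as a dashed line. S-phase and G2/M members lie around 0 at 60 min, while histone genes have a median of −1.03.

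Replication-dependent histone messages, which accompany S phase, had lower values in the same heated libraries. The table held 69 such genes, of which 64 passed the filter, and 60 of 64 were lower at 60 min than in control, with a median log2 change of −1.03. At 15 min 59 of 64 were lower, with a median of −0.68, and from 15 to 60 min 55 of 64, with a median of −0.28. With median-of-ratios scaling the 15 min median was −0.33, and without 60 min s2 the median from 15 to 60 min was 0.0020. Over all genes tested the medians were −0.12 at 60 min, −0.098 at 15 min and 0.00087 from 15 to 60 min. No histone gene passed limma's test at 60 min, where their smallest adjusted p was 0.0909. An unadjusted p under 0.05 was found for 45 of 64, 44 of them lower, against 8.34% of all genes. Both heated libraries were below both controls for 52 of 64 at 60 min (19.8% of all genes) and for 43 of 64 at 15 min (18.9%). The copies with the highest mean signal differed from the median of the list. Hist1h4k, an H4 gene, had 2580 and 4785 in the controls, 3068 and 2986 at 15 min, and 3720 and 2429 at 60 min. Hist1h2ap, an H2A gene, had 1896 and 1437, 1621 and 872, and 1470 and 681. Hist1h2ai, another H2A gene, had log2 changes of 0.18 ± 0.51 and 0.014 ± 0.51 at 15 and 60 min, and Hist1h4m −0.58 ± 0.30 and −0.11 ± 0.30. Histone copies are near-identical, so the division of reads among them is uncertain.

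Set against S-phase transcripts in the same library, the summed histone signal separated the controls from the heated cells. The summed signal of the 64 histone genes per unit of summed S-phase signal was 27.5 and 38.3 in the controls, 18.6 and 20.8 at 15 min, and 20.3 and 18.3 at 60 min. This ratio needs no scaling between libraries. Both controls lay above all 4 heated libraries, and the 15 and 60 min groups overlapped. The histone median minus the S-phase median was −0.82 at 15 min and −1.02 at 60 min, while the pooled SD of that difference between libraries of a group was 0.22. Leaving out any 1 library moved it between −1.13 and −0.67 at 15 min and between −1.20 and −0.74 at 60 min. No exact permutation test of this ratio was run, since 2 libraries against 2 cannot reach 0.05.

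**Figure D4:**
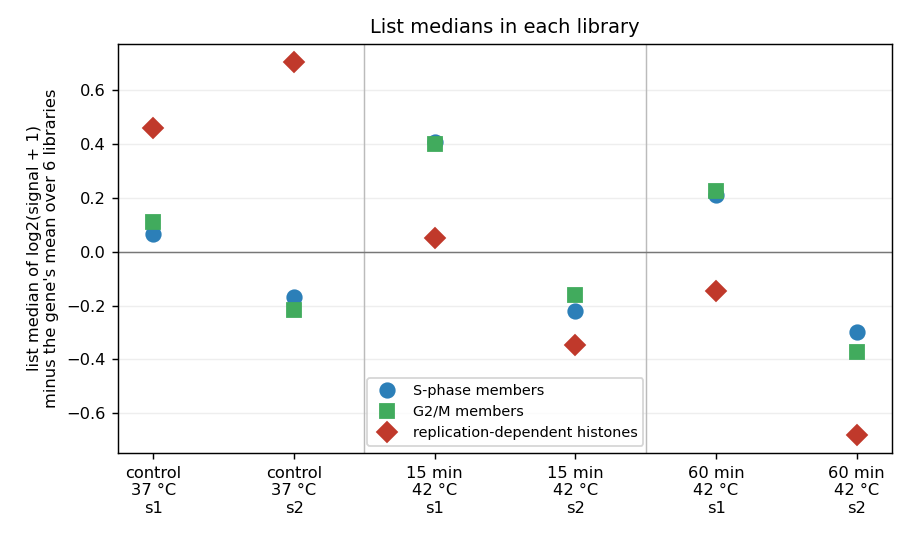
Median over each list of log2(signal + 1) minus the gene's mean over the 6 libraries, per library. S-phase and G2/M medians sit together and alternate with s1 and s2, while the histone median lies above them in both controls and below them in all 4 heated libraries.

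Other genes of the cycle were taken from fixed lists. Of 55 other S-phase genes 22 were lower at 60 min and 33 higher (median 0.052), and none passed. An unadjusted p under 0.05 was found for 1, against 8.34% of all genes. This was Tk1, thymidine kinase, with 35.6 and 36.2 in the controls, 35.4 and 27.1 at 15 min, and 26.2 and 21.9 at 60 min, the last pair below all others (log2 change −0.56 ± 0.21, adjusted p = 0.56). Pold1, Rfc3 and Exo1, of the replicative polymerase, the clamp loader and mismatch repair, followed it by p, with log2 changes of −0.67 ± 0.33, −0.36 ± 0.19 and −0.47 ± 0.26. Gmnn, geminin, which blocks Cdt1, had 48.2 and 37.6, 68.6 and 46.6, and 54.4 and 28.7.

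Of 67 other G2/M genes 40 were lower at 60 min and 27 higher (median −0.092), and none passed. An unadjusted p under 0.05 was found for 3, against 8.34% of all genes. Hjurp, the chaperone of the centromere histone CENP-A, had 129.8 and 132 in the controls, 118 and 114 at 15 min, and 81.0 and 79.5 at 60 min (log2 change −0.70 ± 0.17, adjusted p = 0.408). The 3 groups of Hjurp did not overlap, and the libraries of each pair were close, but Hjurp was named for the smallest p of its list. Over the list both 60 min libraries were below both controls for 6 of 67, against 19.8% of all genes. For 4 both were above, against 12.8%. Kif18a, a kinesin that aligns chromosomes, had 14.2 and 12.4, 13.7 and 11.1, and 8.41 and 7.45. Ccnf, cyclin F, had 29.1 and 24.97, 29.4 and 20.96, and 18.6 and 10.6. Ncapg, a condensin subunit, had 18.3 and 18.8, 26.3 and 20.6, and 28.4 and 22.2, higher in all heated libraries.

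Regulators of the cycle were counted in the same way. Of 47 tested, 30 were lower and 17 higher (median −0.17), and none passed. An unadjusted p under 0.05 was found for 6, 5 of them lower, against 8.34% of all genes. Both 60 min libraries were below both controls for 18 of 47, against 19.8% of all genes, and above both for 4, against 12.8%. E2f1, an activator of S-phase genes, had 23.3 and 21.3 in the controls, 31.8 and 18.8 at 15 min, and 13.9 and 10.1 at 60 min (log2 change −0.85 ± 0.29, adjusted p = 0.539). E2f3, a second activator, had 14.3 and 18.03, 15.3 and 11.95, and 8.28 and 8.23 (−0.88 ± 0.22, adjusted p = 0.416). In both genes the 60 min pair lay below all other libraries. Wee1, the kinase that holds Cdk1 inactive, had 8.95 and 10.1, 10.4 and 7.11, and 5.54 and 5.19. Gadd45g, a stress-induced regulator of the cycle, had 109.9 and 124, 116.5 and 93.1, and 75.4 and 56.1, and Gadd45b went the other way, with 4.31 and 5.80, 5.91 and 5.32, and 9.27 and 11.5. Foxm1 and Mybl2, which activate G2/M genes, had log2 changes of −0.23 ± 0.24 and 0.10 ± 0.53. The inhibitors of cyclin-dependent kinases Cdkn1a, Cdkn1b and Cdkn1c had −0.27 ± 0.34, −0.23 ± 0.22 and 0.14 ± 0.21.

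Factors that make and process histone messages split in direction. Of 12 tested, 7 were lower at 60 min and 5 higher (median −0.037), and none passed. An unadjusted p under 0.05 was found for 3, against 8.34% of all genes. Npat, the coactivator of histone genes, had 11.2 and 12.6 in the controls, 11.3 and 11.1 at 15 min, and 7.25 and 8.53 at 60 min. Ncbp1 and Ncbp2, of the complex that binds the cap, had 100.3 and 107, 147 and 122, and 149.9 and 141, and 89.9 and 69.8, 154 and 130, and 148 and 103. For both, all heated libraries were above both controls. Over the list both 60 min libraries were above both controls for 3 of 12, against 12.8% of all genes. For 1 both were below, against 19.8%. At 15 min both were above for 3 of 12, against 15.1% of all genes, and below for 0, against 18.9%. Lsm10, of the U7 particle that trims histone messages, had 39.0 and 22.8, 37.2 and 32.1, and 25.8 and 11.8. Slbp, which binds the histone stem-loop, had 95.5 and 74.6, 109.5 and 90.5, and 90.9 and 73.0, and its control and 60 min values were close, with a log2 change of −0.050 ± 0.22.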

How the data were processed

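Total RNA of 6 libraries was measured. Per the submitters' processing notes, kallisto and sleuth were used with build GRCm39; no label or header names a version, an annotation or the use of strand. The authors deposited a normalised signal named TPM, whose totals ran from 892768 to 1056383, so it was treated as a signal with an unstated factor per library. Columns were assigned to groups only, since s1 and s2 match no single title. An identifier table named 52028 of 55538 genes.

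Genes whose mean reached 1 (21954) were kept, and log2(signal + 1) was fitted with limma 3.58.1 in R 4.3.3, with group as the only term, all 6 libraries and a mean-variance trend, with a two-sided test whose p-values were adjusted by Benjamini-Hochberg across all of them and called at 0.05. SE and 95% intervals come from this fit. Its recovery of planted changes was tested on simulated libraries with independent noise for each gene. These hold no shift shared by many genes, as between s1 and s2, so the intervals were not checked against such a shift. The log scale understates changes of low genes.

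Members and lists were chosen with earlier results of these data known, so lists are described by counts and medians without a test. Members given in every library are the D cyclins and, in each phase, the 4 genes with the highest mean, the 3 with the smallest p at 60 min and the 2 at 15 min, and further genes (Rrm2, Ccne1, Ccnb2, Plk1, Kif20a) were chosen after their values were seen. Genes of other lists were named by smallest p at 60 min (up to 4 a list), histones by highest mean, and 8 regulators and partners in any case, some by their log2 change alone. Exons of 9 members (Ccna2, Ccnd1, Ccnd2, Ccne2, Cdc20, Kif20a, Mcm7, Plk1 and Ube2c) overlap a gene on the opposite strand in GENCODE M21, and their reads may not be separable.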

Additional observations from a re-analysis of the deposited data

How the results depend on the processing

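None of the 36 genes passed limma's test in any of the 3 comparisons under pseudocounts of 0.1 or 5, no filter or a minimum mean of 5, 3 other scalings, robust limma, limma with no trend, the 4 libraries compared alone, an adjusted p of 0.1, or without any 1 library. With a replicate block by suffix the count was also 0 in each comparison, and 8 of all genes passed at 60 min in place of 9. No label says whether libraries with the same suffix belong together. Across genes the s1 minus s2 differences of 2 groups had correlations of 0.079, 0.10 and 0.22, all positive. Library s1 was higher in all 3 groups for 28 of 36 members, against 20.8% of all genes. Whether the groups were paired by suffix was not tested. Under the block by suffix 5 of 36 members had an unadjusted p under 0.05 at 60 min, where 2758 of all 21954 genes did. At 15 min 5 members did, where 1878 of all genes did.

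Without 1 library in turn, S-phase medians ran from −0.30 to 0.22 at 60 min, −0.13 to 0.45 at 15 min and −0.42 to 0.22 between 60 and 15 min. G2/M medians ran from −0.27 to 0.24, −0.12 to 0.43 and −0.52 to 0.21. Histone medians ran from −1.30 to −0.77, −0.91 to −0.51 and −0.51 to 0.0020, and S-phase minus G2/M from −0.051 to −0.012, −0.088 to 0.12 and −0.065 to 0.13. Median-of-ratios scaling moved the median of all genes by 0.16 at 60 min and 0.27 at 15 min and gave a histone median of −0.33 at 15 min. Of all genes, 28 then passed at 60 min and 7 at 15 min; 48 and 41 passed without control s1, 146 and 216 without control s2, and 0 at 60 min without either 60 min library.

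Some log2 changes of single members at 60 min turned sign, and the cause was not tested. With quantile normalisation Ccnd2 had −0.18, Mcm7 −0.095, Rrm1 −0.041, Hmgb2 −0.16 and Top2a −0.10. Pcna had 0.030 with median-of-ratios scaling and Top2a −0.011 when scaled to an equal sum. Without 1 library they ran from −0.92 to 0.012 for Ccnd1 (−0.45 with all libraries), −0.22 to 0.33 for Ccnd2, −0.14 to 0.31 for Mcm7, −0.10 to 0.90 for Mcm2 (0.40 with all), −0.37 to 0.45 for Rrm1, −0.21 to 0.32 for Hmgb2, −0.19 to 0.23 for Top2a and −0.29 to 0.51 for Ccna2. Depth is unknown, and 2 libraries a group limit precision.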

Other observations

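Histone families differed in how many of their genes were lower at 60 min than in control: 5 of 5 for linker H1, 17 of 18 for H2A, 17 of 17 for H2B, 11 of 11 for H3 and 10 of 13 for H4. The median log2 change ran from −1.67 for H1 to −0.83 for H4. Signals summed over each family did not all separate from control. For H4 the 60 min library s1 summed to 9201, above control s1 at 7629. For H2A the 15 min library s1 summed to 12128, above control s2 at 10530. Sums of H4 at 15 min and of H2A at 60 min lay below both controls, as did every heated sum of H1, H2B and H3. Hist1h4n, chosen after its values were seen, was higher, with 26.0 and 12.8 in the controls, 32.3 and 26.9 at 15 min, and 137 and 92.8 at 60 min (log2 change 2.56 ± 0.36, limma adjusted p = 0.164). Differences between families were not tested, and reads can be divided among copies.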
